A study of Mus musculus with 2 samples.

Results

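The genes described here are 43 cell cycle genes, of 32285 genes counted, in single cells of the mouse mammary gland. They were listed by name, with earlier results of these data known, as 19 genes whose messenger RNA is known to be high around DNA replication (S phase) and 24 genes whose messenger RNA is known to be high in late G2 and mitosis. A dividing cell first licenses and copies its DNA with helicase, clamp and nucleotide synthesis proteins made from the late G1 phase on, and later builds the spindle and splits its chromosomes under cyclin A and cyclin B kinases. In the resting adult gland few epithelial cells divide at any time, and hormone-responsive luminal cells, milk-lineage luminal cells and contractile basal cells do so to different extents. Transcription of the S-phase genes is known to be driven by E2F factors, and that of the mitotic genes by the MuvB complexes with B-Myb and FoxM1.

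Mammary cells came from control mice (Ctrl) and from mice treated with clodronate liposomes (CL), lipid vesicles whose drug kills the phagocytes that engulf them. Clodronate liposomes were given by repeated intraperitoneal injection per the study's methods, and both groups were wild-type females, aged 9 to 10 weeks in one label and 8 to 10 weeks in another. Each group was 1 library of live cells sorted as negative for CD31 and TER119 (markers of endothelial and red blood cells) and stored before capture. With a single library on either side, replicates cannot be used to judge any difference, and none was tested. How many mice went into each library was not given in the sources used here. Whether a difference between the libraries comes from the treatment, the animals or the sort cannot be told apart.

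Transcript molecules were counted by unique molecular identifiers (UMIs), 118743318 in Ctrl and 155765480 in CL, and 5937 and 8826 cells with median depths of 11351 and 10337 UMIs were retained. The macrophage markers went in part against the CL label. Macrophage-like cells numbered 57 in Ctrl and 238 in CL, and 12 macrophage markers summed over all retained cells stood at 99.4 and 246 CPM (UMIs scaled to a fixed total of 1e6 per cell class), a log2 ratio of 1.31 (95% interval 1.27 to 1.34), or 0.32 (0.28 to 0.36) without Lyz2. The higher number lay in a cluster led by Lyz2 and Cd74 (17 and 195 cells), whereas the cluster with C1qa among its leading genes held 40 of 5937 cells in Ctrl and 43 of 8826 in CL. Ctrl and CL below therefore stand for the library with that label, and each direction is between labels. Cells were clustered with the cell cycle genes left out, and 25 of 27 clusters were named from marker genes, which gave 2103 and 2560 hormone-responsive luminal-like cells (Ctrl and CL), 2657 and 3910 secretory-lineage luminal-like cells, 408 and 444 basal-like cells and 213 and 734 T and NK-like cells. The T and NK markers, 11 genes, stood at 137 and 278 CPM over all retained cells. Within the hormone-responsive cells the macrophage markers stood at 10.3 and 10.9 CPM, within the secretory-lineage cells at 46.1 and 37.5, and within the basal cells at 62.4 and 80.8. The T and NK markers stood at 12.3 and 25.5, 12.4 and 17.5, and 39.7 and 25.4 CPM in these classes. In basal-like cells the secretory-lineage markers stood at 2819 and 3717 CPM and the hormone-responsive markers at 333 and 464. In T and NK-like cells these stood at 1248 and 1299 and at 479 and 491 CPM, and the class's own markers at 9827 and 7832. The part of any of these markers in the results below was not tested.

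Promoter sequences are shown because the 2 lists are known to be read from different DNA elements. The CHR element binds the MuvB complexes and lies near CCAAT boxes in mitotic genes, and E2F sites lie in S-phase genes. Promoters of 300 bases, from 250 before to 50 after the gene start, were taken from RefSeq on GRCm38.p6 and matched by symbol for 37 of the 43 members. They were searched on both strands for the letters TTTGAA and TTCGAA (CHR), CCAAT, and TTTGGCGC, TTTCCCGC, TTTGCCGC and TTTCGCGC (E2F). E2F words can share bases with each other. Of 21 mitotic promoters 16 held CHR letters and 18 a CCAAT box, and 1 held an E2F word. Of 16 S-phase promoters 3 held CHR letters, 10 a CCAAT box and 7 an E2F word. Among 27025 gene promoters of the same length, 19.4% held CHR letters, 37.9% CCAAT and 2.32% an E2F word. A match of letters is a description and not a bound site. Stretches of 160 bases upstream of the gene start follow for 4 mitotic genes with CCAAT and CHR letters in their promoter and for 2 S-phase helicase genes with E2F words, Cdk1 at chr10:69352939-69353098 on the minus strand, Ccnb2 at chr9:70421555-70421714 on the minus strand, Top2a at chr11:99024190-99024349 on the minus strand, Cdc20 at chr4:118437353-118437512 on the minus strand, Mcm5 at chr8:75109349-75109508 on the plus strand, and Mcm6 at chr1:128359706-128359865 on the minus strand. They are written 5′ to 3′ on the strand of the gene, and capitals mark the searched letters.
Cdk1: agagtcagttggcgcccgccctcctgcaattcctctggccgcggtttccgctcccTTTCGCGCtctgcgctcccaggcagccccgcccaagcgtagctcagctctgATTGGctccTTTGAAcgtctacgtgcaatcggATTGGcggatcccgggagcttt
Ccnb2: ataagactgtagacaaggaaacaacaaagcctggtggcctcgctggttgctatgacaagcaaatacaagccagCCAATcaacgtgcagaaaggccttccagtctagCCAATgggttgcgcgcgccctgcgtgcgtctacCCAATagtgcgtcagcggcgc
Top2a: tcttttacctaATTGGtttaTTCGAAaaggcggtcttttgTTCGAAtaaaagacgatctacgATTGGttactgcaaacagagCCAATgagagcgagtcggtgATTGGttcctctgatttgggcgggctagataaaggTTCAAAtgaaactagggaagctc
Cdc20: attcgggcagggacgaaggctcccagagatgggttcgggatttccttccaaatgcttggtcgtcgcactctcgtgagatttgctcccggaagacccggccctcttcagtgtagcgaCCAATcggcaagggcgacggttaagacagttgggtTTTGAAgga
Mcm5: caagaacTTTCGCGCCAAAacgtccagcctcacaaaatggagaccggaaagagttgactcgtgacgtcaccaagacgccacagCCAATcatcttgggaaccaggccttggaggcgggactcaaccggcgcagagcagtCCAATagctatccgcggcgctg
Mcm6: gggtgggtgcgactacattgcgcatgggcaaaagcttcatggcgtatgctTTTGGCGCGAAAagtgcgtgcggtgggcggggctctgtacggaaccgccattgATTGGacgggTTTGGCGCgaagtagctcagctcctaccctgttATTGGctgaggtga
The Cdk1 stretch holds 1 CHR, 2 CCAAT and 1 E2F match, the Top2a stretch 3 CHR and 4 CCAAT, and the Cdc20 stretch 1 of each of these. The Ccnb2 stretch holds 3 CCAAT boxes, and its CHR letters lie on either side of the stretch. The Mcm5 stretch holds 2 E2F words and the Mcm6 stretch 3, with 2 CCAAT boxes in each and no CHR match.

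The question asked of each cell class was whether the members' summed RNA, and the share of cells that carry it, differed between the libraries. In hormone-responsive luminal-like cells the mitotic list was lower in CL and the S-phase list was close to level. Over the 24 mitotic genes the sum was 230 CPM (Ctrl) against 109 CPM (CL), a log2 ratio of CL over Ctrl of −1.08 (95% interval −1.13 to −1.03). The 19 S-phase genes summed to 346 and 334 CPM, a log2 ratio of −0.05 (−0.09 to −0.02). All intervals on ratios and shares are exact 95% intervals. They cover counting error only and treat UMIs as independent, although UMIs of the mitotic list came from few cells, as given further down. With a gene called lower or higher at a ratio of at least 1.5-fold and at least 20 UMIs over both libraries, all 24 mitotic members had enough UMIs, 19 were lower in CL and 0 higher, with a median log2 ratio of −1.26. Over all 14555 genes with enough UMIs in this class, 6.35% were lower, 4.62% higher and the median log2 ratio was −0.03. Of the 19 S-phase members 1 was lower and 0 higher, with a median of −0.04.

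Among the kinases and cyclins that drive entry into mitosis, Cdk1, the mitotic kinase, stood at 15.9 CPM in Ctrl and 6.70 CPM in CL, a log2 ratio of −1.24 (−1.44 to −1.05). Ccnb1, the cyclin that activates it, stood at 4.32 and 1.06 CPM (−2.03, −2.51 to −1.57). Ccnb2, its close relative, stood at 10.8 and 2.96 CPM (−1.86, −2.15 to −1.59). These were lower in CL, as were Ccna2, the S-phase and G2 cyclin, at 3.84 and 1.54 CPM and Plk1, the polo-like kinase of the spindle poles, at 2.61 and 0.698 CPM. Aurka, the spindle pole kinase, was the member of this group within the 1.5-fold limits, at 23.9 and 20.9 CPM (−0.20, −0.32 to −0.07). Aurkb, the kinase of the chromosomal passenger complex, stood at 5.32 and 2.12 CPM, and Birc5 (survivin) of the same complex at 16.6 and 7.76 CPM (−1.10, −1.28 to −0.91).

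Ube2c, the ubiquitin-conjugating enzyme of the anaphase-promoting complex, stood at 24.6 CPM in Ctrl and 6.20 CPM in CL (−1.99, −2.18 to −1.80), and Cdc20, the activator of that complex, at 7.58 and 2.86 CPM (−1.41). The spindle genes Kif11, a motor that pushes the poles apart, Tpx2, the activator of Aurora A, and Nusap1, a microtubule-binding protein, had log2 ratios of −1.28, −1.21 and −1.33. Kif23, a motor of the central spindle needed for cytokinesis, was within the limits at 6.45 and 4.97 CPM (−0.38, −0.63 to −0.12).

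The kinetochore members split in the same class. Cenpa, the histone variant of the centromere, stood at 17.3 and 8.54 CPM (−1.02, −1.20 to −0.84), and the outer kinetochore proteins Cenpe and Cenpf at ratios of −1.62 and −1.67. Ndc80, which binds the microtubule, had a ratio of −0.80 (−1.21 to −0.40), and Bub1, a checkpoint kinase, of −1.95 (−2.51 to −1.42). The checkpoint protein Bub1b and the shugoshins Sgo1 and Sgo2a, which guard cohesion at the centromere, lay within the limits at −0.52 (−0.84 to −0.19), −0.42 (−0.85 to 0.01) and −0.54. The chromatin members Top2a, which untangles DNA, and Mki67, the Ki-67 antigen of dividing chromosomes, were lower in CL at −0.83 (−0.97 to −0.69) and −1.15 (−1.36 to −0.93). Top2a stood at 23.8 CPM in Ctrl and 13.4 in CL, and Mki67 at 12.5 and 5.65 CPM.

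The S-phase members were near level in the same cells, with the exception of Pclaf. The helicase subunits Mcm2 to Mcm7 had log2 ratios between −0.05 (Mcm7) and 0.20 (Mcm5), and Mcm6 stood at 68.3 CPM in Ctrl and 68.6 CPM in CL (0.01, −0.07 to 0.08). The loading factors Cdc6 and Cdt1 and the helicase cofactor Gins2 had ratios of 0.16, 0.05 and 0.34. Pcna, the sliding clamp, stood at 85.6 and 79.3 CPM (−0.11, −0.18 to −0.05), while Pclaf, the clamp-associated factor, was lower in CL at 16.6 and 7.74 CPM (−1.10, −1.29 to −0.92). The nucleotide synthesis enzymes Rrm1, Rrm2 and Tyms lay at −0.04, −0.35 and −0.27. The E cyclins Ccne1 and Ccne2, which start S phase, lay at −0.20 and −0.38. Uhrf1, which helps copy DNA methylation, Fen1, the flap nuclease, and Ung, the uracil-removing glycosylase, lay at −0.16, −0.13 and 0.23. Mcm7 reads may include those of the microRNA genes within it, and Top2a shares exon sequence with a small RNA gene.

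**Figure D1:**
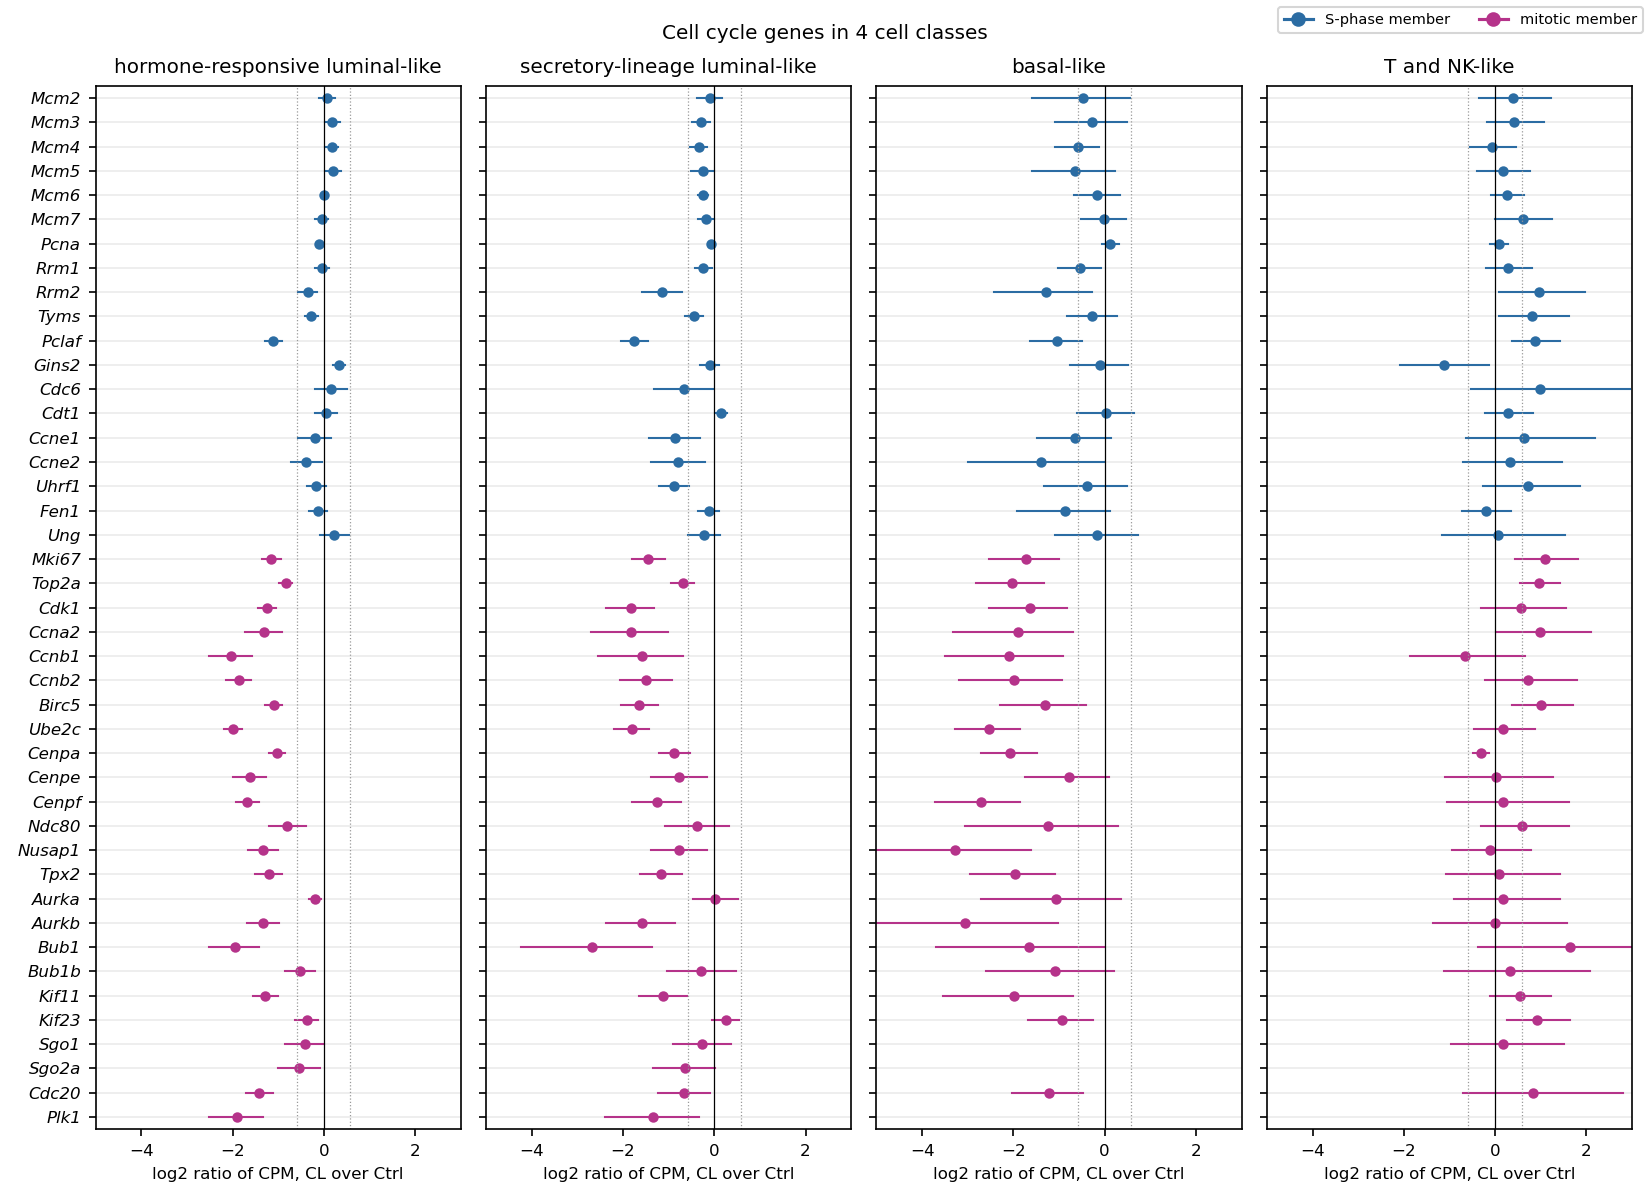
Log2 ratios of CPM, CL over Ctrl, of the members with at least 20 UMIs in 4 cell classes, 1 library per group. Points are ratios, bars are exact 95% counting intervals (drawn to the edge of the axis where they go beyond it) and dotted lines mark 1.5-fold. In the hormone-responsive panel the S-phase points lie around 0 except Pclaf, and all 24 mitotic points lie below 0.

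The size of the mitotic ratio of this class varied with the clusters included. Of 5 hormone-responsive clusters, the cluster led by Upk3a held 217 Ctrl and 1096 CL cells and the cluster led by Gpx3 held 823 Ctrl and 48 CL cells, so each is mostly of 1 library and may reflect that library. In the Upk3a cluster the mitotic list stood at 745 CPM in Ctrl and 81.5 CPM in CL (−3.19, −3.27 to −3.11) and the S-phase list at 710 and 296 CPM (−1.26). Within it Cdk1 stood at 69.3 and 3.61 CPM, and Ube2c at 97.6 and 3.34 CPM. The Gpx3 cluster was low in the mitotic list in both libraries, at 49.7 and 63.6 CPM (0.36, −0.06 to 0.75). The clusters led by Fxyd2 (499 and 498 cells), Wfdc2 (314 and 587) and Prlr (250 and 331) had mitotic ratios of −0.85, −1.16 and −0.47 and S-phase ratios of −0.01, −0.21 and −0.13. Without the Upk3a cluster the class ratio was −0.27 (−0.33 to −0.21) for the mitotic list, with 8 of 24 members lower against 5.81% of 13973 genes, and 0.30 for the S-phase list. Without the Gpx3 cluster the ratios were −1.61 and −0.41, and 23 of 24 mitotic members were lower against 6.71% of 14202 genes. Without both, in 1063 Ctrl and 1416 CL cells, they were −0.83 (−0.89 to −0.77) and −0.05, and 17 of 24 mitotic members were lower against 5.67% of 13482 genes.

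**Figure D2:**
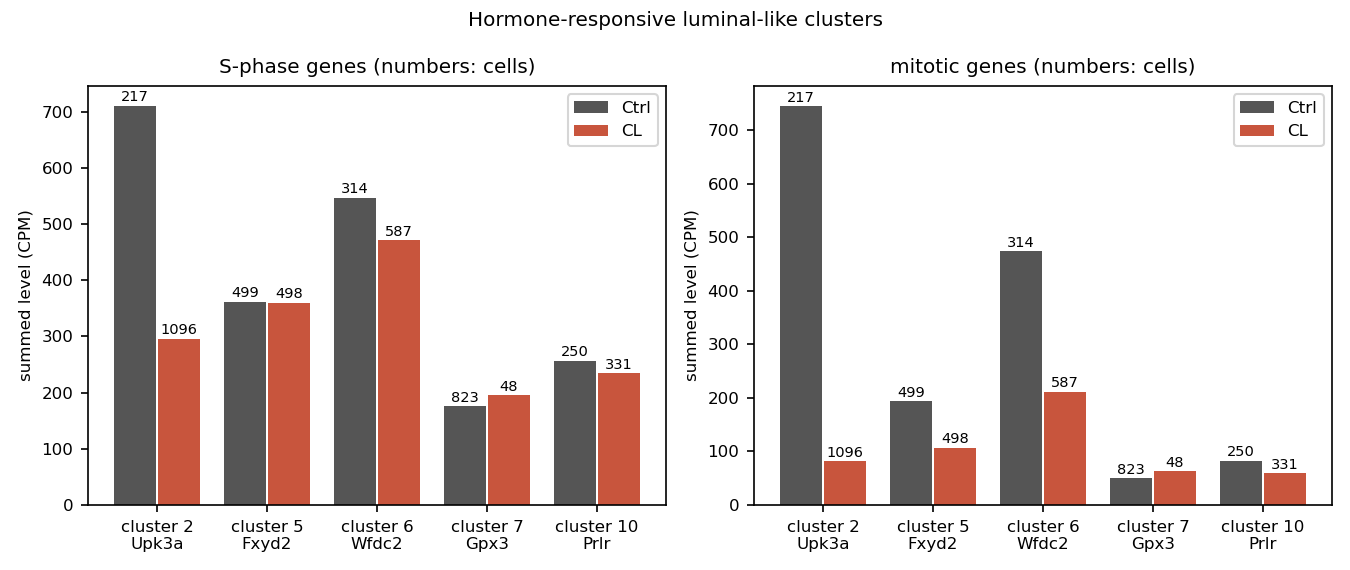
Summed CPM (bars, from 0) of the S-phase and mitotic genes in the 5 hormone-responsive luminal-like clusters, named by number and leading gene, for each library. Numbers above bars are cells. The Upk3a cluster has the highest Ctrl bar in both panels, and the Gpx3 cluster, nearly all Ctrl cells, is low in both.

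The difference was next counted in cells. Each cell was thinned to 2000 UMIs, and a cell was called high in a list at 3 or more UMIs of it, a range of a per-cell sum and not a cell type. Of the hormone-responsive cells with enough UMIs, 47 of 2053 in Ctrl were mitotic-high (2.29%, 1.69 to 3.03) and 25 of 2518 in CL (0.993%, 0.644 to 1.46), a log2 ratio of shares of −1.21 (−1.97 to −0.48). S-phase-high cells were 92 (4.48%, 3.63 to 5.47) and 109 (4.33%, 3.57 to 5.20), a ratio of −0.05 (−0.46 to 0.37). Cells just outside the mitotic limit, with 2 UMIs, numbered 30 and 27, and cells just inside, with 3, numbered 10 and 5. Without the Upk3a cluster 30 of 1836 and 18 of 1422 cells were mitotic-high (−0.37), without the Gpx3 cluster 47 of 1233 and 25 of 2470 (−1.91), and without both 30 of 1016 and 18 of 1374 (−1.17). For comparison, endothelial-like cells, which are not expected to divide often in the adult gland, gave 0 of 44 and 0 of 53 mitotic-high cells, which allows up to 6.82% and 5.66% at median depths of 4274 and 5670 UMIs before thinning.

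Combining the 2 lists placed hormone-responsive cells in 4 ranges. In Ctrl 62 cells were high in S phase only, 30 in both and 17 in mitosis only, and in CL 90, 19 and 6. The 30 Ctrl cells high in both held 51.9% of the mitotic UMIs of their class, and the 19 such CL cells 38.8%. Their median depth was 39937 UMIs in Ctrl and 25071 in CL, against 20070.5 and 16776 for cells high in neither, and their median doublet scores were 0.0696 and 0.0732 against 0.0412 and 0.0382. Cells high in both carried 4120 CPM of the mitotic list in Ctrl and 3664 CPM in CL, and cells high in mitosis only 4465 and 2160 CPM, the last from 6 cells. Cells high in neither list carried 58.8 and 54.1 CPM of the mitotic list (−0.12, −0.20 to −0.04) and 216 and 242 CPM of the S-phase list (0.16, 0.12 to 0.20). These levels in ranges chosen on the same UMIs are a description.

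The mitotic UMIs were concentrated in few cells. The 22 highest hormone-responsive Ctrl cells, 1% of the class, held 60.8% of its mitotic UMIs and 24.1% of the S-phase UMIs were in the 22 cells highest in that list, and in CL the 26 highest cells held 47.7% and 18.7%. No mitotic UMI was found in 43.4% of Ctrl and 47.1% of CL cells, and no S-phase UMI in 9.65% of each. A single Ctrl cell held 682 mitotic UMIs.

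Each member was then placed by how much of its RNA lay in the cells high in the other members of either list, 179 to 224 of 4571 hormone-responsive cells of both libraries with 5.66% to 6.93% of their UMIs. Among the mitotic genes Ccna2 had 93.7% of its 237 UMIs there, Aurkb 92.7%, Bub1 92.4% and Cdk1 90.6%, so that Cdk1 stood at 145 CPM in those cells and 1.12 CPM in the rest. Aurka had 11.2% (9.90 to 12.7) of its 2019 UMIs there, at 36.6 CPM against 21.3 CPM, and Kif23 37.9%. Among the S-phase genes Pclaf (86.6%), Rrm2 (81.9%) and Uhrf1 (69.6%) were the most confined, and Mcm6 (18.2%), Ccne2, Gins2 and Pcna (23.6%) had most UMIs outside. Mcm6 stood at 220 CPM in the high cells and 59.4 CPM in the rest, and Pcna at 327 and 66.7 CPM. Over both libraries Aurka and Kif23 were the mitotic members with most of their UMIs outside the high cells, as were 13 of the 19 S-phase members. The shares differed by library. Aurka had 14.9% of its UMIs in high cells in Ctrl and 7.41% in CL, Kif23 54.9% and 17.9%, Cenpa 68.4% and 27.5%, Ccna2 94.5% and 91.8%, and Cdk1 93.4% and 84.5%. Pclaf had 91.7% and 76.5%, and Mcm6 20.8% and 15.9%. The members' confinement and their ratio between the libraries share the same UMIs and are given side by side without a test.

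**Figure D3:**
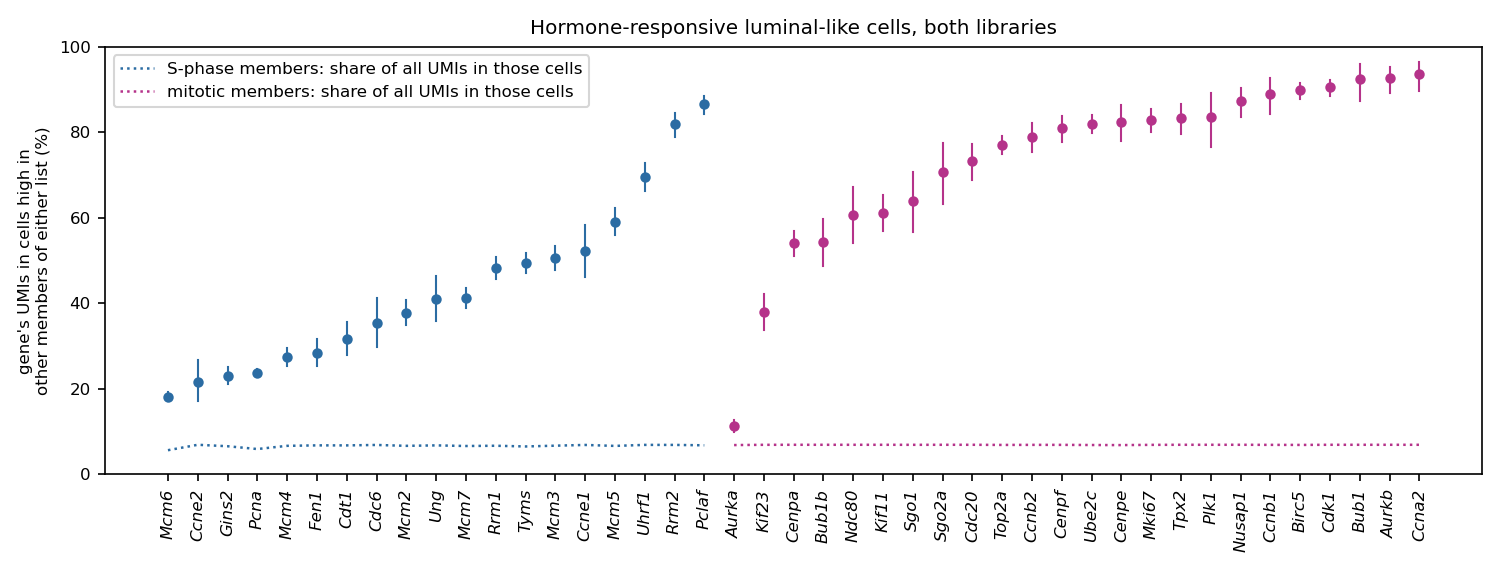
Percent of each member's UMIs that lay in hormone-responsive luminal-like cells high in other members of either list, both libraries together, with exact 95% binomial intervals. Dotted lines give the share of all UMIs in those cells. With both libraries pooled Aurka (11.2%) stands lowest of the mitotic genes and Ccna2 (93.7%) highest.

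Cdk1 and Ccnb1, partners in the mitotic kinase, were also read per cell without thinning. In hormone-responsive cells 98 Ctrl cells had a Cdk1 UMI and 53 a Ccnb1 UMI, and 32 had both (32.7% of the Cdk1 cells). In CL 84, 20 and 11 cells did (13.1%). In secretory-lineage cells 51 and 22 Ctrl cells and 26 and 14 CL cells carried these genes, with 10 and 5 carrying both (19.6% and 19.2% of the Cdk1 cells). In basal-like cells the counts were 14, 13 and 8 in Ctrl and 4, 1 and 1 in CL, and in T and NK-like cells 11, 3 and 1 in Ctrl and 40, 11 and 7 in CL. Cell depth differed between the libraries, and empty droplets held Cdk1 at 20.9 and 10.6 CPM and Ccnb1 at 6.89 and 1.98 CPM, above the class levels of the hormone-responsive cells. Cells with a UMI are therefore not read as cells expressing the gene, and no difference is drawn from these counts.

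Secretory-lineage luminal-like cells had less mitotic RNA and the difference had the same sign. The mitotic list stood at 70.6 CPM in Ctrl and 36.8 CPM in CL (−0.94, −1.04 to −0.85), and 19 of 24 members were lower and 0 higher, with a median of −1.14. Over 13882 genes 7.12% were lower, 3.58% higher and the median was −0.04. Cdk1 stood at 3.68 and 1.03 CPM (−1.83, −2.36 to −1.32), Mki67 at 6.05 and 2.23 CPM (−1.44, −1.81 to −1.08), and Ube2c at 6.83 and 1.95 CPM (−1.81, −2.19 to −1.44). Bub1 had 27 UMIs in Ctrl and 6 in CL, the lowest ratio of the list in this class (−2.67, −4.24 to −1.37). Aurka (0.03), Kif23 (0.25), Bub1b (−0.28), Ndc80 (−0.38) and Sgo1 (−0.27) lay within the limits, and the intervals of each of these included 0. Sgo2a was called lower at −0.65 with an interval of −1.33 to 0.03. The other lower members were the cyclin and kinase genes Ccna2 (−1.82), Ccnb1 (−1.59), Ccnb2 (−1.48), Aurkb (−1.59) and Plk1 (−1.34). So were the spindle and anaphase genes Tpx2 (−1.16), Kif11 (−1.12), Nusap1 (−0.78) and Cdc20 (−0.66), and Top2a (−0.69), Birc5 (−1.64), Cenpa (−0.87), Cenpe (−0.77) and Cenpf (−1.26).

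In secretory-lineage cells the S-phase list stood at 360 and 318 CPM (−0.18, −0.22 to −0.15). Of 19 members 6 were lower and 0 higher, against 7.12% of 13882 genes lower and 3.58% higher. The lower members were Pclaf at 10.2 and 3.03 CPM (−1.75), Rrm2 at 3.81 and 1.72 CPM (−1.14), Uhrf1 (−0.87), Ccne1 (−0.86), Ccne2 (−0.79) and Cdc6 (−0.67). The helicase subunits Mcm2 to Mcm7 lay between −0.34 (Mcm4) and −0.10 (Mcm2). Between these were Mcm3 (−0.29), Mcm5 (−0.26), Mcm6 (−0.25) and Mcm7 (−0.18). Within the limits were also Rrm1 (−0.24), Tyms (−0.44), Gins2 (−0.10), Cdt1 (0.15), Fen1 (−0.12) and Ung (−0.22). Pcna stood at 167 and 158 CPM (−0.08), and without it the other 18 genes stood at 194 and 160 CPM (−0.28, −0.33 to −0.23). S-phase-high cells were 109 of 2592 (4.21%) and 116 of 3828 (3.03%), a ratio of −0.47 (−0.86 to −0.08), and mitotic-high cells were 15 (0.579%) and 7 (0.183%), a ratio of −1.66 (−3.20 to −0.28). Over the planned settings these ratios ran from −1.75 to −0.16 and from −2.74 to −1.30. Of the 5 clusters of the class, the cluster led by Ltf was nearly all CL cells (27 and 1006), and without it the mitotic ratio was −0.90 and the S-phase ratio −0.15. The clusters led by Csn3 with Aldh1a3, Wfdc18, Csn3 with Cck, Ltf and Csf3 had mitotic ratios of −1.02, −0.97, −0.85, −0.75 and −0.13, the last with an interval of −0.48 to 0.22.

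Basal-like cells formed 1 cluster. The mitotic list stood at 317 CPM in Ctrl and 89.5 CPM in CL (−1.83, −2.02 to −1.63). Sgo1, Sgo2a and Plk1 had under 20 UMIs, and each of the other 21 members was lower, 4 of them (Cenpe, Ndc80, Aurka and Bub1b) with an interval that included 0, against 9.98% of 10538 genes lower and 4.72% higher and a median of −0.08. Ube2c stood at 38.7 and 6.68 CPM (−2.53, −3.29 to −1.85), Cenpf at 26.3 and 4.01 CPM (−2.72), Cenpa at 39.5 and 9.35 CPM (−2.08), and Ccnb1 at 10.0 and 2.34 CPM (−2.10, −3.51 to −0.92). The remaining ratios were those of the cyclin and kinase genes Cdk1 (−1.63), Ccna2 (−1.89), Ccnb2 (−1.98), Aurka (−1.07) and Aurkb (−3.05), of the kinetochore genes Cenpe (−0.79), Ndc80 (−1.24), Bub1 (−1.66) and Bub1b (−1.10), and of Mki67 (−1.73), Top2a (−2.04), Birc5 (−1.31), Nusap1 (−3.28), Tpx2 (−1.96), Kif11 (−1.98), Kif23 (−0.94) and Cdc20 (−1.22). As the mean of each cell's CPM the list ratio was −1.06 and Bub1b turned to 0.69. Few cells carried these UMIs, since the 5 highest Ctrl cells held 67.5% of them. Mitotic-high cells were 8 of 399 (2.01%) and 2 of 400 (0.5%), a ratio of −2.00 with an interval of −5.28 to 0.32. The S-phase list stood at 396 and 345 CPM (−0.20, −0.31 to −0.08), and Cdc6 had too few UMIs. Of the other 18 members 7 were lower, namely Mcm4, Mcm5, Rrm2, Pclaf, Ccne1, Ccne2 and Fen1, and 0 higher, and the intervals of Mcm5, Ccne1 and Fen1 included 0. The ratios of the lower members were Mcm4 (−0.59), Mcm5 (−0.66), Rrm2 (−1.28), Pclaf (−1.05), Ccne1 (−0.66), Ccne2 (−1.39) and Fen1 (−0.86), and the others lay at Mcm2 (−0.48), Mcm3 (−0.28), Mcm6 (−0.16), Mcm7 (−0.02), Pcna (0.13), Rrm1 (−0.54), Tyms (−0.27), Gins2 (−0.11), Cdt1 (0.03), Uhrf1 (−0.39) and Ung (−0.16). S-phase-high cells were 17 of 399 and 15 of 400, a ratio of −0.18 that ran from −2.33 to 0.037 over the planned settings. Outside the high cells, the mitotic list stood at 43.4 and 32.9 CPM (−0.40, −0.79 to −0.01).

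In T and NK-like cells both list sums were higher in CL, though not clearly in each cluster. The mitotic list stood at 606 CPM in Ctrl and 699 CPM in CL (0.21, 0.08 to 0.33) and the S-phase list at 672 and 802 CPM (0.25, 0.14 to 0.37). Of 22 mitotic members with enough UMIs 9 were higher and 1 lower, and of 19 S-phase members 7 were higher and 1 lower, against 11.6% of 9282 genes higher and 9.0% lower and a median of 0.02. Mki67 stood at 19.4 and 41.3 CPM (1.09, 0.43 to 1.82), Top2a at 46.1 and 90.4 CPM (0.97, 0.54 to 1.43), and Birc5 at 21.2 and 42.6 CPM (1.01, 0.37 to 1.70). Pclaf stood at 34.1 and 62.5 CPM (0.87, 0.37 to 1.41), and Gins2 was lower in CL at 14.8 and 6.79 CPM (−1.12, −2.07 to −0.12). Ccnb1 was called lower on 9 and 20 UMIs (−0.67, −1.87 to 0.65), and the intervals of 4 of the 9 higher mitotic members, Ccnb2, Ndc80, Bub1 and Cdc20, included 0. So did those of the S-phase members Cdc6, Ccne1 and Uhrf1. The other higher members were Mcm7 (0.61), Rrm2 (0.97), Tyms (0.82), Cdc6 (0.99), Ccne1 (0.64) and Uhrf1 (0.72) of the S-phase list and Ccna2 (0.99), Ccnb2 (0.72), Ndc80 (0.60), Bub1 (1.64), Kif23 (0.92) and Cdc20 (0.82) of the mitotic list. Within the limits lay Mcm2 (0.40), Mcm3 (0.43), Mcm4 (−0.06), Mcm5 (0.17), Mcm6 (0.26), Pcna (0.09), Rrm1 (0.29), Cdt1 (0.29), Ccne2 (0.32), Fen1 (−0.20) and Ung (0.07) and the mitotic members Cdk1 (0.57), Ube2c (0.18), Cenpe (0.01), Cenpf (0.18), Nusap1 (−0.12), Tpx2 (0.09), Aurka (0.18), Aurkb (−0.01), Bub1b (0.32), Kif11 (0.54) and Sgo1 (0.18). Sgo2a and Plk1 had under 20 UMIs.

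Cenpa made up a large part of the mitotic sum in these cells. It stood at 330 CPM in Ctrl and 267 CPM in CL (−0.31, −0.48 to −0.13), and 21.8% of its UMIs lay in cells high in the other members, which held 21.3% of all UMIs of the class, so that its level was 288 CPM in those cells and 280 CPM in the rest. In hormone-responsive cells 54.0% of its UMIs lay in such cells, which held 6.93% of all UMIs there. Without Cenpa the mitotic list stood at 276 and 432 CPM (0.65, 0.47 to 0.83), and mitotic-high cells were 4 of 194 (2.06%) in Ctrl and 33 of 685 (4.82%) in CL, against 21 (10.8%) and 87 (12.7%) with it. S-phase-high cells were 30 (15.5%) and 109 (15.9%), a ratio of 0.04 that was 1.12 with less deep thinning and 1.99 at a limit of 5 UMIs. Over the planned settings it ran from −0.076 to 1.99 and kept its sign in 11 of 14. The mitotic-high ratio was 0.23 and ran from −0.021 to 1.40. The 4 clusters of the class, led by Ccl5 (72 and 236 cells), Ccl5 with Cd52 (44 and 233), Emb (36 and 191) and Gzma with Gzmb (61 and 74), had mitotic ratios of 0.08 (−0.17 to 0.33), 0.03 (−0.18 to 0.24), 0.70 (0.30 to 1.12) and 0.13 (−0.14 to 0.39). Their S-phase ratios were −0.15 (−0.35 to 0.07), 0.12 (−0.08 to 0.33), 0.52 (0.18 to 0.87) and 0.06 (−0.24 to 0.36), so that only the Emb cluster had intervals without 0. Whether the sign differs between the epithelial and the lymphoid classes beyond the spread between animals was not tested.

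**Figure D4:**
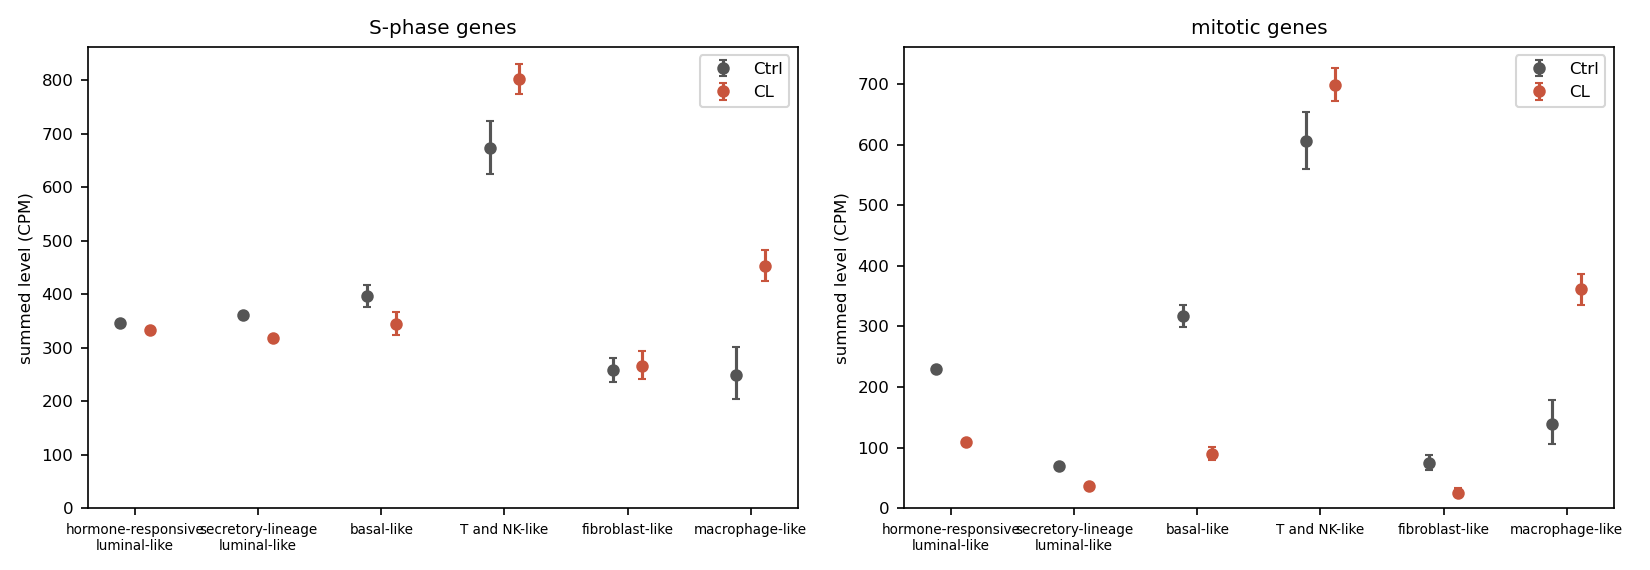
Summed CPM of the 19 S-phase and the 24 mitotic genes by cell class in each library, 1 library per group, with exact Poisson 95% intervals. The mitotic points of the epithelial-like and fibroblast-like classes are lower in CL, and those of T and NK-like and macrophage-like cells are higher.

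**Figure D5:**
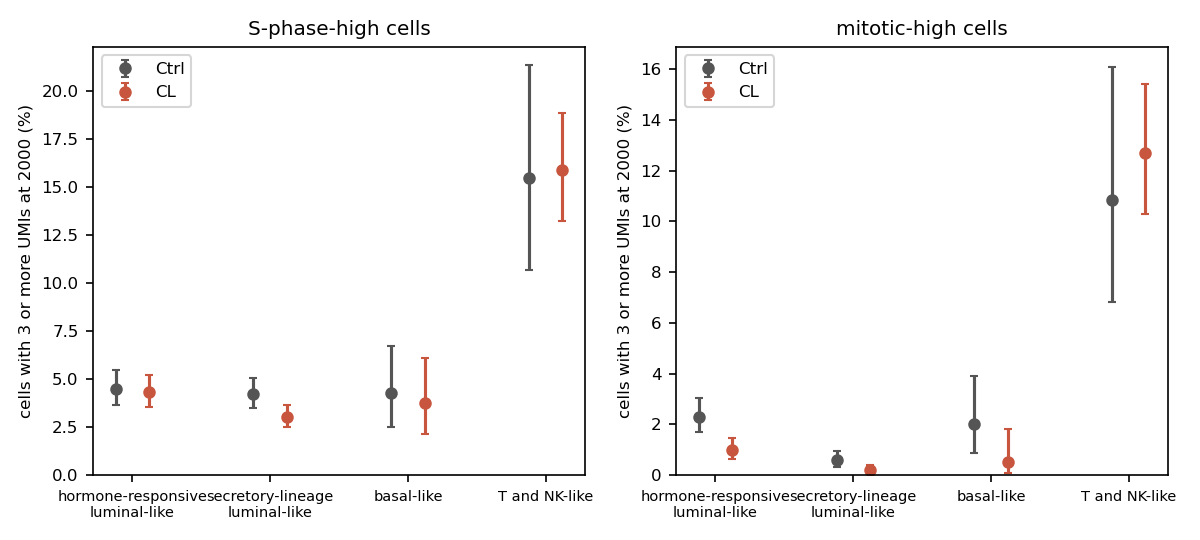
Percent of cells with 3 or more UMIs of the S-phase or the mitotic list after thinning to 2000 UMIs, by class and library, with exact binomial 95% intervals. Hormone-responsive mitotic-high cells are 2.29% in Ctrl and 0.993% in CL, and the S-phase-high shares of that class overlap.

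Smaller classes gave wide intervals. In macrophage-like cells the mitotic list stood at 140 CPM in Ctrl (61 UMIs) and 361 CPM in CL (785 UMIs), a ratio of 1.37 (0.99 to 1.77), and the S-phase list at 249 and 453 CPM (0.86). Without Cenpa the mitotic list stood at 36.6 and 213 CPM on 16 and 464 UMIs (2.54, 1.83 to 3.36). Different clusters held most of the class, since the Lyz2-led cluster made up 29.8% of it in Ctrl and 81.9% in CL. Within that cluster the mitotic ratio was 0.71 (0.13 to 1.35), and within the other, led by Cd74, 1.47 (0.94 to 2.03). Of class totals of 436878 UMIs in Ctrl and 2174211 in CL, Birc5 had 0 and 77, Ube2c 0 and 50, and Pclaf 2 and 82. Mitotic-high cells were 0 of 52, which allows up to 5.77%, and 7 of 219 (3.20%). In fibroblast-like cells the mitotic list stood at 74.5 and 25.0 CPM on 145 and 41 UMIs (−1.58, −2.11 to −1.07), with 1 of 221 and 0 of 217 cells mitotic-high, and the S-phase list at 258 and 267 CPM. An unnamed cluster with leading genes of both luminal classes (152 and 524 cells) had a mitotic ratio of −0.59 (−0.71 to −0.48). Its median doublet score was 0.160, against 0.0340 to 0.0710 in the named luminal clusters, and its median depth 27056 UMIs, and the part of either in its values was not tested. Endothelial-like cells carried 7 and 15 mitotic UMIs, and B-like cells, 3 and 22 in number, 5 and 268.

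Free RNA differed between the libraries too. Barcodes of 100 to 300 UMIs, taken as empty droplets, held the mitotic list at 276 CPM in Ctrl and 129 CPM in CL (−1.10, −1.19 to −1.01) and the S-phase list at 416 and 375 CPM (−0.15, −0.21 to −0.09). For Cdk1 the empty droplets stood at 20.9 and 10.6 CPM. The part of free RNA in the class sums was not tested. Cells high in neither list had lower CPM of the mitotic list than these droplets in the 3 epithelial classes, at 58.8 CPM or below. The whole-class mitotic sums of hormone-responsive (230 and 109 CPM) and secretory-lineage cells (70.6 and 36.8 CPM) also lay below the droplets of their library. That of basal-like cells lay above them in Ctrl (317 CPM) and below in CL (89.5 CPM).

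Other genes of the cycle, on lists not used to choose cells, were set beside the members. The share of all genes in hormone-responsive cells to read these counts against is 6.35% lower and 4.62% higher. Of 53 other mitosis genes 34 were lower in CL and 0 higher, with a median of −0.78. Mad2l1, a spindle checkpoint protein, stood at 29.1 and 14.7 CPM (−0.98), and Anln, which acts in the cleavage furrow, at 22.3 and 13.5 CPM (−0.72), while the kinase subunits Cks2 and Cks1b had ratios of −0.36 and −0.06. Of 38 other replication genes 0 were lower and 0 higher, with a median of 0.01, and 0.09 for Slbp, which binds histone messenger RNA, and −0.10 for Dnmt1, the maintenance DNA methyltransferase. Of 16 E2F and DREAM regulators E2f7, Mybl2 and Foxm1 were lower, and of 14 G1 regulators Cdc25b and Cdc25c were lower and Ccnd2 higher, the last at 0.509 and 0.804 CPM with an interval that included 0 (−0.13 to 1.49). Ccnd1, the D cyclin, stood at 222 and 251 CPM (0.18) and its kinase partner Cdk4 at 144 and 129 CPM (−0.16). Of 18 inhibitors 1 was higher, the kinase inhibitor Cdkn1c at 5.04 and 11.8 CPM (1.23), and Cdkn1a, the p21 inhibitor, stood at 173 and 202 CPM (0.23). Of 22 chromatin and tubulin genes 4, all histone genes, were lower.

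The other mitosis genes split by class in the way the members did. In secretory-lineage cells 27 of 47 with enough UMIs were lower and 0 higher (median −0.65), and in basal-like cells 26 of 33 were lower and 0 higher (median −1.13). In T and NK-like cells 0 of 35 were lower and 18 higher (median 0.60). Other replication genes were lower for 5 of 38 in secretory-lineage cells, where 7.12% of all genes were, and for 4 of 24 (with 1 higher) in basal-like cells, where 9.98% were. They were higher for 11 of 32 in T and NK-like cells, where 11.6% of all genes were. E2F and DREAM regulators were lower for 4 of 16 in secretory-lineage cells, lower for 3 and higher for 1 of 14 in basal-like cells, and higher for 8 of 14 in T and NK-like cells. In basal-like cells the D cyclin Ccnd2 was lower, at 111 and 58.8 CPM (−0.91, −1.17 to −0.65), and Ccnd1 stood at 42.1 and 39.4 CPM.

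The mitotic-high epithelial-like cells of both libraries, 104 cells, were set against the 11294 epithelial-like cells high in neither list and read for the other lists as a description. Both sides differed in make-up, since 69.2% of the mitotic-high cells and 38.5% of the others were hormone-responsive, and 67.3% and 42.5% were from Ctrl. The same contrast was therefore added, after the data were seen, within hormone-responsive cells alone, with 72 and 4347 cells and both libraries pooled. Cells high in the S-phase list only were left out of both sides, which widens the contrast for replication genes. Over 16003 genes with at least 20 UMIs 13.1% were at least 2-fold higher in the mitotic-high epithelial-like cells and 15.1% at least 2-fold lower, and over 14476 genes within the hormone-responsive class 10.4% and 11.7%. Of 53 other mitosis genes 52 were at least 2-fold higher across the epithelial-like cells and 51 within the class. Pttg1 (securin) was the exception in the first, at 44.6 and 55.7 CPM. Of 38 other replication genes 37 were higher, and 38 within the class, and of the E2F and DREAM regulators 13 of 16 in both contrasts. Within the class H2afz, a histone variant, stood at 2986 and 336 CPM and Stmn1, a tubulin-binding protein, at 1445 and 26.4 CPM. Of 18 inhibitors the same 4 were at least 2-fold higher in both contrasts, namely Cdkn2a, Cdkn2c, Cdkn2d and Rbl1, the p107 pocket protein. The stress gene Gadd45b was at least 2-fold lower in both, at 143 and 288 CPM within the class. Counts of G1 genes differed between the 2 contrasts, and Mycn had too few UMIs within the class. Across the epithelial-like cells 8 of 15 were at least 2-fold higher and 1, Myc, lower, and within the class 5 of 14 were higher, among them Cdc25b and Cdc25c, and 0 lower. Myc, a growth regulator, stood at 47.2 and 117 CPM across the epithelial-like cells and at 30.6 and 47.4 CPM within the class. Cdkn1a turned from 299.9 and 408 CPM to 264 and 187 CPM. Ccnd1 stood at 251 and 227 CPM within the class and Cdk4 at 249 and 128 CPM.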

How the data were processed

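Single-cell libraries of the mammary gland, 1 labelled Ctrl and 1 labelled CL, were read as the counts the authors deposited, UMIs per gene and barcode before any cell filter. The file headers name Cell Ranger 4, whereas the submitters' processing notes name Cell Ranger 2.1.1 and mm10, and the labels name the 3′ v2 chemistry. The members and lists were chosen with earlier results of these data known.

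The deposited barcode lists did not index the matrix columns, so the barcodes with most UMIs, as many as listed (7217 and 10555), were taken. All 18 barcodes listed in both libraries had, within 12 ranks in each, a matching column among the 22 columns taken in both. Cells with at least 500 genes and at most 15% mitochondrial UMIs (6297 and 9335) were kept. Scrublet (expected rate 6%) marked 360 and 509 doublets at the threshold it set for Ctrl, 0.2111. Its own threshold for CL marked 0, so the Ctrl one was used for both, a choice made after seeing the data. Cells were clustered in scanpy 1.11.5 (2000 variable genes without the cell cycle lists, 30 components, 15 neighbours, Leiden resolution 1) and named from marker lists. The names are rebuilt and may differ from those of the study.

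UMIs were summed per class and library and divided by the class total to give CPM, computed here from the deposited counts. Ratios carry exact conditional binomial intervals, sums exact Poisson and shares Clopper-Pearson intervals, all at 95% and for counting error only. A count of 0 was given the upper limit that 3 counts allow. Cells under 2000 UMIs were left out of thinned shares (hormone-responsive 50 and 42, secretory-lineage 65 and 82, basal 9 and 44, T and NK 19 and 49). With 1 library per group no test was made. In the 4 classes compared, values were printed for each member with at least 20 UMIs, and the same 1.5-fold rule over all genes gave the background. Genes of other lists were named for a known role. The ratio script was tested on simulated Poisson counts. Those lack the concentration of UMIs in few cells, so the test does not cover it. In the simulation 3.39% (hormone-responsive) to 11.9% (T and NK) of unchanged genes passed 1.5-fold. There were 19 planned and 7 added alternative settings. Python 3.11.15, scipy 1.17.1, numpy 2.4.6, R 4.3.3 and edgeR 4.0.16 (TMM factors only) were used.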

Additional observations from a re-analysis of the deposited data

Results flagged for a closer look

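The list sums had opposite signs in epithelial-like and in T and NK-like cells, and the difference between classes was not tested, since each library is 1 sample. The log2 ratio of the S-phase list was −0.053 in hormone-responsive luminal-like, −0.18 in secretory-lineage luminal-like and −0.20 in basal-like cells, against 0.25 in T and NK-like cells. The S-phase sign turned in some settings, to 0.018 in hormone-responsive cells with the cell cycle lists kept for clustering or with each cell named alone, to 0.30 without the Upk3a cluster, and to 0.055 in basal-like cells at 5% mitochondrial UMIs. The mitotic list stood at −1.08, −0.94 and −1.83 in the same epithelial-like classes, against 0.21. Among the T and NK-like clusters only the one led by Emb (36 and 191 cells) had intervals without 0, for either list.

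Of the members, 10 passed 1.5-fold in both the hormone-responsive and the T and NK-like cells. Over all genes with enough UMIs, 6.35% were lower and 4.62% higher in the first class, and 9.0% and 11.6% in the second. The share of all genes past the limit in both classes was not computed, so the overlap is listed without a reading. Ccnb1 was lower in both (−2.03 and −0.67, the latter with an interval of −1.87 to 0.65). The other 9 members were lower in the first and higher in the second, and Ccnb2, Ndc80, Bub1 and Cdc20 among them had intervals in T and NK-like cells that included 0. Of those with intervals without 0 in both classes, Pclaf had ratios of −1.10 and 0.87, Mki67 of −1.15 and 1.09, Top2a of −0.83 and 0.97, Ccna2 of −1.31 and 0.99, and Birc5 of −1.10 and 1.01.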

How the results depend on the processing

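Of the alternative values of list sums and high-cell shares, 199 moved by less than the counting interval, 41 moved by more and 0 reversed a called value. In hormone-responsive cells the mitotic log2 ratio was −1.15 at a minimum of 1000 genes and −1.15 at 200, −1.14 at 5% mitochondrial UMIs, −1.15 with no such limit, −1.33 with doublets kept, −0.91 with the cell cycle lists kept for clustering, −0.99 with each cell named alone and −0.81 as the mean of each cell's CPM. It was −1.61 without the Gpx3 cluster, −0.27 without the Upk3a cluster and −0.83 without both. The S-phase ratio was 0.018 with the lists kept, 0.018 with cells named alone, −0.41 without the Gpx3 and 0.30 without the Upk3a cluster. The ratio of S-phase-high shares was −0.64 and 0.59 without these clusters, and that of mitotic-high shares −0.37 without Upk3a. In secretory-lineage cells the mitotic ratio was −0.80 at 1000 genes and −0.84 as mean CPM, and the S-phase ratio −0.14 with the lists kept, −0.13 with TMM factors and −0.28 without Pcna. Their S-phase-high ratio was −0.93 when thinned less deeply, −1.75 with no thinning and −0.98 at 5 UMIs. In basal-like cells the mitotic ratio was −1.06 as mean CPM, and the S-phase ratio 0.055 at 5% mitochondrial UMIs, −0.074 as mean CPM and −0.43 without Pcna. Their S-phase-high ratio was −1.39 with no mitochondrial limit and −2.33 at 5 UMIs. For T and NK-like cells the mitotic ratio was 0.38 at 5% mitochondrial UMIs, 0.34 with doublets kept and 0.65 without Cenpa, and the S-phase ratio 0.12 as mean CPM. The S-phase-high ratio was 1.12 when thinned less deeply and 1.99 at 5 UMIs, and the mitotic-high ratio 1.40, 1.22 and, without Cenpa, 1.22. At their lowest over the planned settings these ratios were −0.076 (S-phase-high) and −0.021 (mitotic-high). As mean CPM, Nusap1 in secretory-lineage cells turned to 0.14, Bub1b in basal-like cells to 0.69 and Ccne1 in T and NK-like cells to −0.023. The causes were not tested. The settings without Cenpa, Pcna or a cluster were chosen after seeing the data.

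At 2-fold, 2 of 19 S-phase members were lower in secretory-lineage cells (2.34% of all genes) and 3 of 18 in basal-like cells (3.08%). At a minimum of 50 UMIs, 4 of 12 S-phase and 12 of 12 mitotic members were lower in basal-like cells, against 6.26% of 8381 genes. In T and NK-like cells at 2-fold, 0 of 19 S-phase and 3 of 22 mitotic members were higher (4.56% of all genes), and the mitotic member called lower was lost. At 50 UMIs 0 members of either list were lower there. No paired analysis was possible because each group is 1 library. Intervals do not cover which dividing cells were caught or the spread between animals.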
